A study of Mus musculus with 15 samples.

Results

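The 10 genes described here form the RANK pathway and the osteoclast programme it drives, namely Tnfsf11, Tnfrsf11a, Tnfrsf11b, Csf1, Nfatc1, Oscar, Atp6v0d2, Ctsk, Acp5 and Mmp9. They were chosen by name, not by a cut on their values, though with earlier results of these data known. Every probe on the array whose accession belongs to any of them was taken, which gave 15 of the 55681 probes. RNA came from the midshaft of the femur of 15 male C57BL/6J mice, given by the labels as 9 weeks old, with 1 array per mouse. By the study's account that is about the age at surgery, and the mice were killed weeks later, after the time in flight or on the ground. G-Sham (n = 4) were unoperated mice kept on the ground, FLT-Sham (n = 4) were unoperated mice flown to the International Space Station, and G-Surgery (n = 4) and FLT-Surgery (n = 3) had a segmental defect cut in the femur before housing on the ground or in flight. The defect was bridged by a scaffold with a collagen sponge soaked in saline and no growth factor, and it is of a size that does not close unaided, so Surgery is a model of non-healing bone. Sham mice had neither bone surgery nor scaffold, so the effects of the cut, the implant and the sponge cannot be told apart. The labels call the tissue of every mouse callus, also that of the unoperated mice.

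Osteoclasts are the cells that resorb bone. They arise from cells of the macrophage lineage when the growth factor M-CSF (Csf1) keeps the precursor alive and RANKL (Tnfsf11), made by osteoblasts, osteocytes and other stromal cells, binds the receptor RANK (Tnfrsf11a). Osteoprotegerin (Tnfrsf11b) is a soluble decoy that takes up RANKL. Signals from RANK through NF-kB and AP-1, with a co-stimulatory signal from receptors such as Oscar, switch on the transcription factor NFATc1, which drives the genes of the mature cell. Among those are cathepsin K (Ctsk), which cuts collagen, tartrate-resistant acid phosphatase (Acp5), the gelatinase Mmp9, and the d2 subunit of the proton pump (Atp6v0d2), which also serves cell fusion.

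The promoters of 4 of these genes are printed to show which letters the promoters of Ctsk and Acp5, whose values moved together below, hold or lack beside those of Oscar and Tnfrsf11a, whose values did not follow them. Each line gives the 250 bases before an annotated transcript start, in the direction of the gene, from RefSeq on GRCm38.p6. They lie at chr3:95498960-95499209 on the plus strand for Ctsk, chr9:22130599-22130848 on the minus strand for Acp5, chr7:3616158-3616407 on the minus strand for Oscar and chr1:105780473-105780722 on the plus strand for Tnfrsf11a. Capitals mark matches to the NFAT core TGGAAA, the Ets and PU.1 core GAGGAAG, the AP-1 site TGANTCA, the M-box CATGTG or the NF-kB site, each searched on both strands.
Ctsk: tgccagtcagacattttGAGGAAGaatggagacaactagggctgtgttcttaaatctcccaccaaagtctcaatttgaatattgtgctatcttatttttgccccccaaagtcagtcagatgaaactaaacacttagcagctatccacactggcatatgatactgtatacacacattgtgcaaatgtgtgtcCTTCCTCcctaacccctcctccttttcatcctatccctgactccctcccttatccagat
Acp5: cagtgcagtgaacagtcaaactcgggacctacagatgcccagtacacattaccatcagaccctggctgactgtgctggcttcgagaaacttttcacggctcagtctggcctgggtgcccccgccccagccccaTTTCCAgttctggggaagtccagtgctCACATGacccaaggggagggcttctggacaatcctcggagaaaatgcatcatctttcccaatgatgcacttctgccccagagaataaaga
Oscar: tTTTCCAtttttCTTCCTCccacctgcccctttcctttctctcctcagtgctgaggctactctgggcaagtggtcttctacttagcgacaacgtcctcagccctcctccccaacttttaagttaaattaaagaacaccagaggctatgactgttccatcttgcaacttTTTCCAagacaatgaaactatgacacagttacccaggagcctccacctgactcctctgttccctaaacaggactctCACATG
Tnfrsf11a: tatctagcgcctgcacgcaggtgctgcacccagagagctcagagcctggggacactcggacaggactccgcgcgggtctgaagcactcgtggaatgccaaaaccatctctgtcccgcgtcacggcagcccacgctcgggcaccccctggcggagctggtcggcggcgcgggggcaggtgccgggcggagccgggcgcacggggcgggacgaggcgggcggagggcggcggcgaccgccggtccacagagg

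The window of Ctsk held the Ets core 2 times, at 233 to 227 and at 59 to 53 bases before the start. That of Acp5, one of its 3 windows and chosen because the other starts held no match, had an NFAT core at 117 to 112 bases and an M-box at 90 to 85 bases before the start. The Oscar window held 2 NFAT cores, an Ets core and an M-box, and that of Tnfrsf11a none of the 5 motifs. Among 32851 promoter windows of the same length, 18.6% held the NFAT core, 10.6% the Ets core, 12.3% the M-box, 17.6% the NF-kB site and 6.75% the AP-1 site, so matches of this kind are common. Windows were found for 6 of the 10 genes. A match describes the letters only, and no binding was measured.

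On each array the sample RNA was labelled with Cy5 and a pool of RNA from mouse cell lines with Cy3, and a level is given as the log2 ratio of Cy5 to Cy3, so that 0 is the level of the pool. Between 12493 and 21461 probes per array, 22.4% to 38.5%, had a Cy5 signal well above background. FLT-Surgery replicates 3 and 5 stood apart, with the highest Cy5 dye factors of the scanner software (59.5 and 50.9, against 19.8 to 48.0 on the other arrays) and the lowest muscle means (4.74 and 4.29, against 7.18 in FLT-Surgery replicate 1). Results that rest on these arrays are also given without them, a choice made after seeing the data, where the lone FLT-Surgery array is assumed to vary like the other groups. The arrays lay on 3 slides. Slide 1 held G-Sham replicate 3, FLT-Sham replicate 4, G-Surgery replicates 1, 4 and 5 and FLT-Surgery replicates 3 and 5. Slide 3 held G-Sham replicate 4, and slide 2 held the rest. Most Surgery arrays thus lay on slide 1 and most Sham arrays on slide 2, so surgery and slide are partly mixed. Each Sham group had 1 array on slide 1 and each Surgery group 1 on slide 2, so differences within a slide rest on few arrays. Signals from skeletal muscle genes were high in every group, with mean log2 ratios over the 8 muscle markers of 5.87 to 8.15 in G-Sham, 6.13 to 8.23 in FLT-Sham, 5.62 to 7.25 in G-Surgery and 4.29 to 7.18 in FLT-Surgery. Of the 10 osteoblast and osteocyte markers, Sp7, Dmp1, Sost and Phex were below background on every array, and the other 6 were detected on at least 3. A difference between bulk samples does not tell fewer cells of a type from less RNA per cell. The labels do not tie replicates to separate cultures or litters, and each array is taken as 1 mouse.

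**Figure D1:**
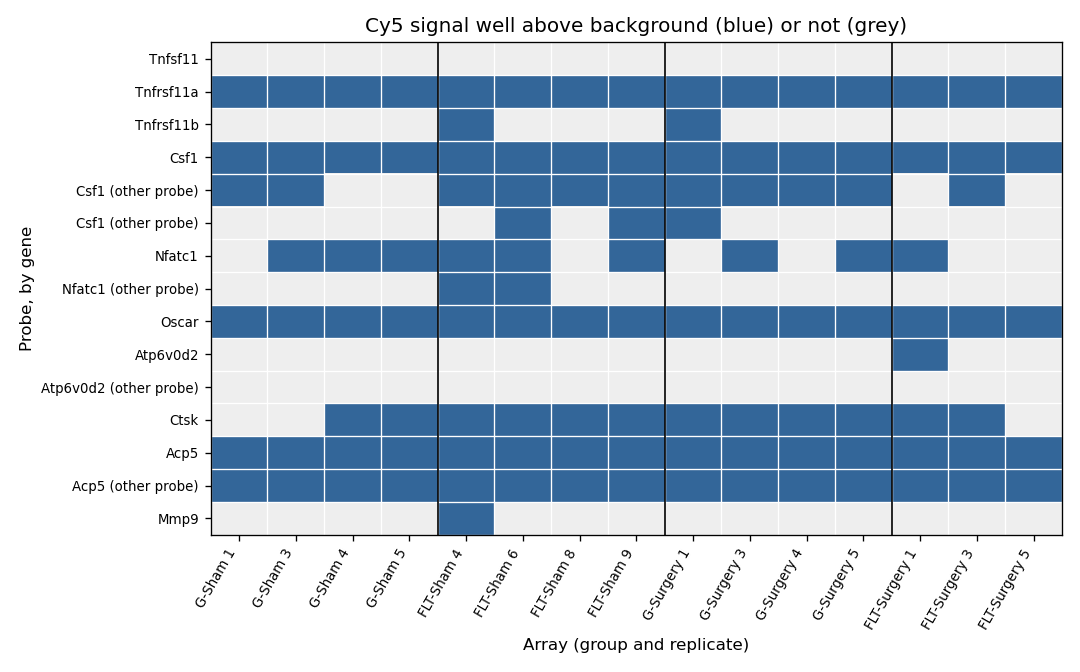
Detection of the 15 probes (rows, by gene) on the 15 arrays (columns, by group and replicate), with blue for a Cy5 signal well above background. Tnfrsf11a, Csf1, Oscar and Acp5 were detected on all 15 arrays at their brightest probe and Ctsk on 12, while Tnfsf11 was below background on all, Tnfrsf11b was above it on 2 arrays, and Atp6v0d2 and Mmp9 on 1 each.

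Of the 10 genes, 6 could be compared, because their brightest probe was above background on at least 3 of the arrays compared. The cut-off for all comparisons was a 2-fold change with a limma p of 0.01 or less before adjustment. Tnfrsf11a after surgery on the ground was the only member called among the 4 comparisons of groups and the test of their interaction. No member reached an adjusted p of 0.05, which 0.0113% of probes reached between G-Surgery and G-Sham, 0.0836% between FLT-Surgery and FLT-Sham and 0% in the other comparisons. An unadjusted p of 0.05 or less in limma was seen for 4 of 6 members between G-Surgery and G-Sham (10.9% of probes), for 2 between FLT-Surgery and FLT-Sham (24.3%), for 0 between FLT-Sham and G-Sham (9.57%), for 0 between FLT-Surgery and G-Surgery (16.4%) and for 2 in the interaction (19.5%). The largest difference in size was that of Nfatc1 between FLT-Surgery and FLT-Sham and that of Ctsk in each of the others, and both genes differed widely between mice of a group.

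The ligand came first and was dark. Tnfsf11, the gene of RANKL, had a single probe, which was below background on all 15 arrays, with log2 ratios between -2.01 and 0.93. Tnfrsf11b, the decoy receptor, was above background on 2 of 15 arrays only, FLT-Sham replicate 4 at 2.82 and G-Surgery replicate 1 at -0.74. Neither gene was tested, and the RANKL to osteoprotegerin balance cannot be read from these arrays.

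Tnfrsf11a, the receptor RANK, was above background on all 15 arrays and above the reference pool on each. In G-Sham its log2 ratios were 2.83, 3.06, 2.61 and 2.15 in replicates 1, 3, 4 and 5. In FLT-Sham they were 2.39, 2.21, 2.63 and 1.71 in replicates 4, 6, 8 and 9. In G-Surgery they were 4.21, 3.81, 3.93 and 3.13 in replicates 1, 3, 4 and 5, and in FLT-Surgery 2.94, 3.22 and 3.23 in replicates 1, 3 and 5. Every G-Surgery array lay above every Sham array of either kind, and every FLT-Surgery array above every FLT-Sham array.

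Between G-Surgery and G-Sham, Tnfrsf11a rose by 1.11 on the log2 scale (standard error 0.32, adjusted p = 0.335 in limma), which is 2.15-fold, from a mean of 2.66 ± 0.39 (SD, n = 4) to 3.77 ± 0.46 (SD, n = 4). It was the only one of the 6 tested members past the cut-off, which 2.59% of all probes tested in that comparison passed. Within slide 1 the difference was 0.70 and within slide 2 it was 1.31. The median over all probes in this comparison was 0.14. The call did not hold after a further loess normalization within arrays (0.83), with normexp background correction (0.62), in the Cy5 channel alone (0.84) or with slide as a block (0.99), all in the same direction, and it held in 2 of the 8 fits that left out an array.

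In flight, FLT-Surgery exceeded FLT-Sham by 0.90 for Tnfrsf11a (standard error 0.36, adjusted p = 0.190 in limma), with means of 3.13 ± 0.17 (SD, n = 3) and 2.23 ± 0.39 (SD, n = 4), and it did not pass the cut-off. None of the 6 tested members passed in that comparison, against 6.65% of all probes. The spaceflight differences of RANK were -0.43 in Sham mice (standard error 0.34, adjusted p = 0.567) and -0.64 in Surgery mice (standard error 0.32, adjusted p = 0.343), and the groups overlapped in each. None of the tested members passed either comparison, which 2% and 3.14% of probes passed. In order of level the groups ran from G-Surgery through FLT-Surgery and G-Sham to FLT-Sham, and the arrays of each group overlapped those of the next.

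**Figure D2:**
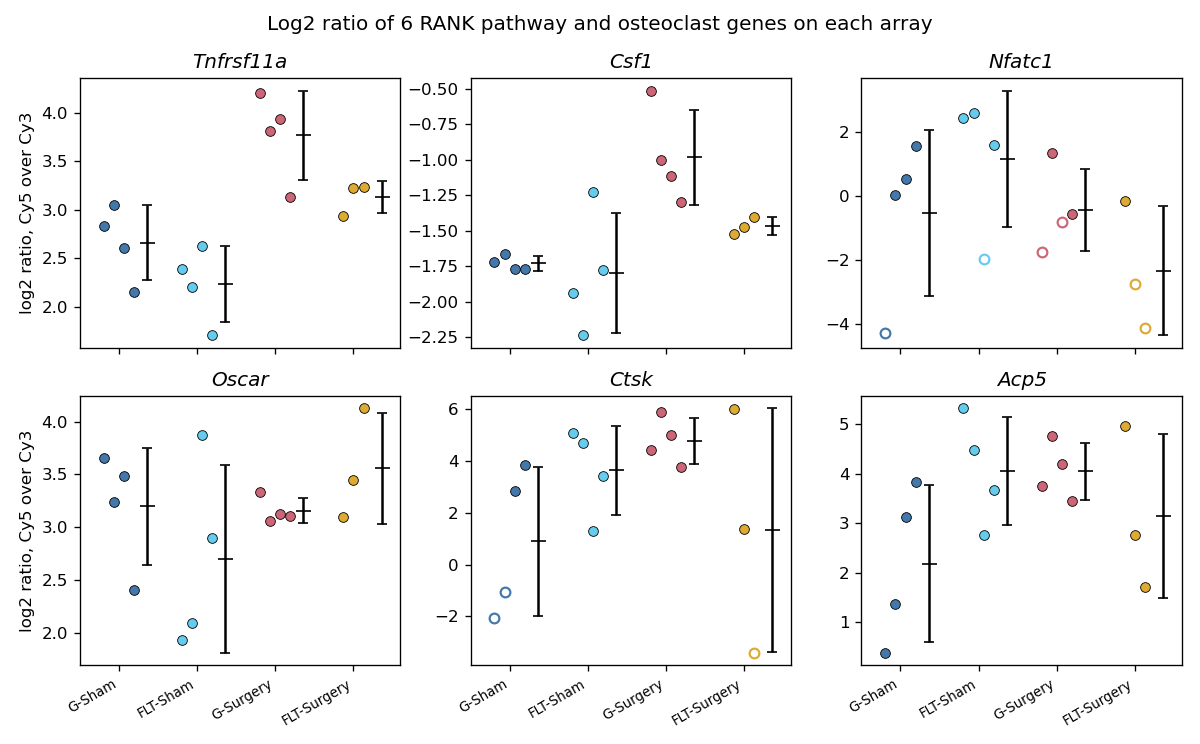
Log2 ratio of Cy5 to Cy3 (vertical axes, scales differ) for the brightest probe of 6 genes on each array, by group, with the mean and SD beside the points and open points where Cy5 was not well above background. G-Surgery arrays lie above G-Sham arrays for Tnfrsf11a (3.13 to 4.21 against 2.15 to 3.06) and Csf1, while Ctsk in G-Sham and FLT-Surgery spreads over several log2 units.

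Csf1, the growth factor M-CSF that precursors need, was measured by 10 spots of its main probe and lay below the reference pool on all 15 arrays. Log2 ratios were -1.72, -1.66, -1.77 and -1.77 in G-Sham and -1.93, -2.24, -1.23 and -1.77 in FLT-Sham. In G-Surgery they were -0.51, -1.003, -1.11 and -1.30, and in FLT-Surgery -1.52, -1.47 and -1.40. All G-Surgery arrays were thus above all G-Sham arrays and above all FLT-Surgery arrays, and G-Sham and FLT-Surgery hardly varied within the group.

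The difference between G-Surgery and G-Sham for Csf1 was 0.75 (standard error 0.24, adjusted p = 0.362 in limma), with 0.69 within slide 1 and 0.74 within slide 2. It is a 1.68-fold difference and so lies under the fold of the cut-off. FLT-Surgery minus G-Surgery was -0.48 (standard error 0.27, adjusted p = 0.387), with -0.46 and -0.52 within the slides, and after a further loess this difference was -0.0018. FLT-Sham minus G-Sham was -0.065 (standard error 0.31). The spread among the 10 spots of an array was 0.12 at the median (SD), against 0.20 for the median SD between mice of a group. A further probe of Csf1, above background on 11 of 15 arrays, gave 0.52 (standard error 0.51) between G-Surgery and G-Sham and -0.90 (standard error 0.66) between the Surgery groups, and the third was above background on 3 arrays.

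Nfatc1, the transcription factor at the head of the osteoclast programme, was above background on 9 of 15 arrays at its main probe. The log2 ratios were -4.27, 0.05, 0.54 and 1.58 in G-Sham and 2.43, 2.59, -1.95 and 1.61 in FLT-Sham. In G-Surgery they were -1.73, 1.34, -0.81 and -0.55, and in FLT-Surgery -0.14, -2.73 and -4.12. 3 FLT-Sham arrays were the highest of all 15, and the groups overlapped in every comparison.

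Between FLT-Surgery and FLT-Sham, Nfatc1 differed by -3.50 (standard error 1.31, adjusted p = 0.177 in limma). Only replicate 1 of the 3 FLT-Surgery arrays was above background, so the size of this difference rests on background-level values. It was -4.54 without FLT-Sham replicate 8, which passed the cut-off (adjusted p = 0.0164), -0.99 with normexp and -1.31 without FLT-Surgery replicates 3 and 5. FLT-Surgery and G-Surgery differed by -1.89 (standard error 1.03, adjusted p = 0.370), and with slide as a block by -2.12, which also passed it (adjusted p = 0.0918). With normexp the same difference was -0.087, without FLT-Surgery replicate 5 it was -0.99, and without replicates 3 and 5 it was 0.30. Between G-Surgery and G-Sham the value was 0.087 (standard error 1.22), and its sign changed with the scaling. The values followed the skeletal muscle markers of the same arrays (Pearson r = 0.919, Spearman rho = 0.950 over 15 arrays), and also the osteoblast and osteocyte (r = 0.891), adipocyte (r = 0.879) and neutrophil markers (r = 0.813). The part of these cell types in the differences was not tested. The other Nfatc1 probe was above background only in FLT-Sham replicates 4 and 6, at 1.08 and 1.09.

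Oscar, the co-stimulatory receptor, was above background and above the reference pool on all 15 arrays. Its log2 ratios were 3.66, 3.24, 3.48 and 2.41 in G-Sham and 1.93, 2.10, 3.88 and 2.90 in FLT-Sham. They were 3.33, 3.06, 3.12 and 3.104 in G-Surgery and 3.09, 3.45 and 4.13 in FLT-Surgery. The group means ran only from 2.70 ± 0.89 (SD, n = 4) in FLT-Sham to 3.56 ± 0.53 (SD, n = 3) in FLT-Surgery, and all groups overlapped.

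No Oscar difference passed the cut-off on the deposited ratios. The largest between groups was 0.86, for FLT-Surgery minus FLT-Sham (standard error 0.56, adjusted p = 0.330 in limma), and that between G-Surgery and G-Sham was -0.042 (standard error 0.31). After a further loess FLT-Surgery exceeded G-Surgery by 1.21, which passed it, and with normexp the same difference was -0.041 and without FLT-Surgery replicates 3 and 5 -0.062. Oscar ran opposite to Nfatc1 over the 15 arrays (r = -0.855, rho = -0.875), and to the muscle markers (r = -0.787).

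Ctsk, the collagen-cutting protease, had the widest range of any member, from -3.41 to 6.02 on the log2 scale. In G-Sham its log2 ratios were -2.05, -1.05, 2.85 and 3.84, and the first 2 of these were at background. In FLT-Sham they were 5.10, 4.71, 1.31 and 3.43. In G-Surgery they were 4.43, 5.88, 4.99 and 3.77. In FLT-Surgery they were 6.02 in replicate 1, 1.36 in replicate 3 and -3.41, at background, in replicate 5. Only G-Surgery was uniformly high, and FLT-Surgery held both the highest and the lowest array of the 15.

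The difference of G-Surgery from G-Sham for Ctsk was 3.87 (standard error 1.28, adjusted p = 0.362 in limma), with 5.44 within slide 1 and 4.99 within slide 2. Its unadjusted p of 0.0152 missed the cut-off, and 1 G-Sham array overlapped the G-Surgery range. With 2 of the 4 G-Sham arrays at background, its size is not a measured fold. It passed in the Cy5 channel alone (3.42), with slide as a block (5.23) and without G-Sham replicate 5 (4.85). It did not pass with normexp (1.96), the smallest over the other settings. Nor did it pass without G-Sham replicate 1 (2.88), the smallest of the fits that left out an array. FLT-Sham exceeded G-Sham by 2.74 on average (standard error 1.42, adjusted p = 0.522). It ran from 1.60 to 3.40 over the other settings and from 1.76 to 3.72 when an array was left out, and passed in none.

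FLT-Surgery and G-Surgery differed in Ctsk by -3.44 (standard error 1.91, adjusted p = 0.379 in limma). The slides disagreed, with -5.42 on slide 1 and 0.14 on slide 2, where FLT-Surgery replicate 1 lay. Without FLT-Surgery replicate 1 the difference was -5.79 (adjusted p = 0.0399), without replicate 5 it was -1.07, with normexp -1.25, and without replicates 3 and 5 it was 1.26. The difference from FLT-Sham, -2.31 with all arrays, was 0.054 without replicate 5 and 2.38 without replicates 3 and 5. The spaceflight effect in Surgery minus that in Sham was -6.18 (standard error 2.53, adjusted p = 0.220), and without FLT-Surgery replicate 1 it was -8.53, which passed the cut-off (adjusted p = 0.0522), without replicate 5 -3.81 and without replicates 3 and 5 -1.48. None of the tested members passed the cut-off in this interaction, which 5.33% of probes passed.

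Acp5, tartrate-resistant acid phosphatase, had 2 probes above background on all 15 arrays. At the main probe the log2 ratios were 0.38, 1.37, 3.13 and 3.84 in G-Sham and 5.33, 4.48, 2.77 and 3.67 in FLT-Sham. In G-Surgery they were 3.76, 4.77, 4.21 and 3.45, and in FLT-Surgery 4.96, 2.77 and 1.72. The same arrays as for Ctsk were low, G-Sham replicates 1 and 3 and FLT-Surgery replicate 5, and here they were measured above background.

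G-Surgery exceeded G-Sham in Acp5 by 1.87 at the main probe (standard error 0.73, adjusted p = 0.416 in limma) and by 1.95 at the other (standard error 0.80, adjusted p = 0.432). FLT-Sham exceeded G-Sham by 1.88 (standard error 0.84, adjusted p = 0.514) and 2.12 (standard error 0.90, adjusted p = 0.514). FLT-Surgery and G-Surgery differed by -0.90 and -1.57, and the interaction was -2.78 (standard error 1.21, adjusted p = 0.238) and -3.69 (standard error 1.43, adjusted p = 0.209). Both probes thus gave each difference the same sign. Without FLT-Surgery replicate 1 the difference between the Surgery groups was -1.80, which passed the cut-off (adjusted p = 0.0641), without replicate 5 it was -0.18, and without replicates 3 and 5 it was 0.91.

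Mmp9, the gelatinase, had 10 spots and was above background on 1 array, FLT-Sham replicate 4, at -1.65. Its other ratios lay between -3.95 and -2.41. Atp6v0d2, the proton pump subunit of mature osteoclasts, was above background on FLT-Surgery replicate 1 alone, at 1.98, and its second probe on none. That mouse was also the one with the highest Ctsk. Neither gene was tested.

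**Figure D3:**
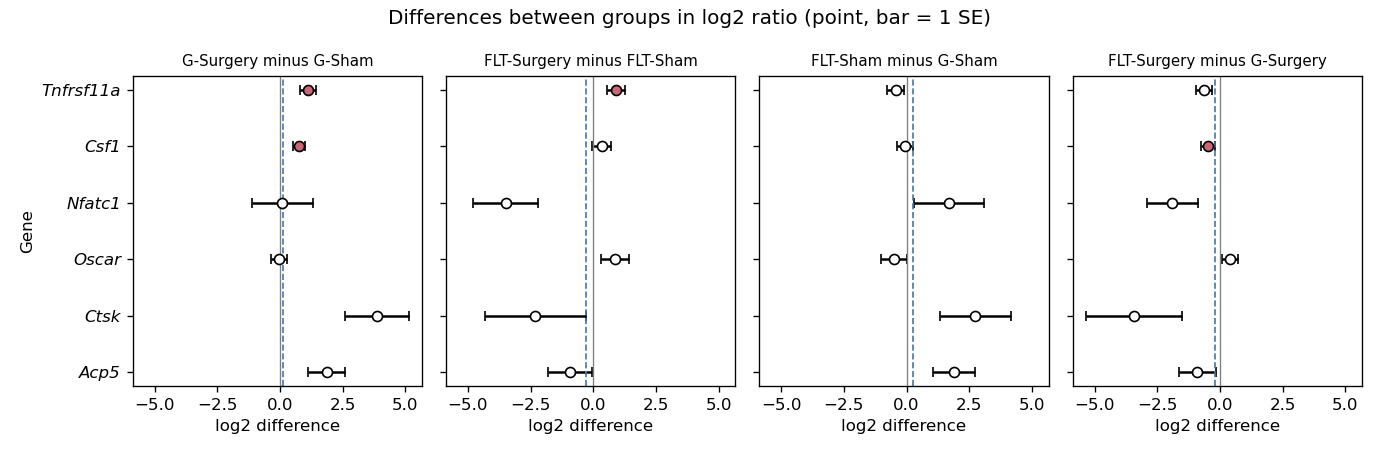
Difference in log2 ratio between groups (horizontal axes) for the brightest probe of 6 genes, with bars of 1 standard error, filled points where the arrays of the groups do not overlap and a dashed line at the median of all probes tested. Tnfrsf11a and Csf1 lie at 1.11 and 0.75 with short bars after surgery on the ground, and Ctsk at 3.87 with a bar of 1.28.

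Several members varied together across mice. Ctsk and Acp5 ran together over the 15 arrays, with Pearson r = 0.937 and Spearman rho = 0.968, 0.950 around the group means, and 0.908 and 0.993 within slides 1 and 2. Without the 2 arrays farthest from the Ctsk median r was 0.956. Tnfrsf11a and Csf1 also ran together (r = 0.843, rho = 0.868), but with 0.551 around the group means. Nfatc1 ran with Ctsk (r = 0.715, 0.815 around the group means) and with Acp5 (r = 0.73, 0.879 around the group means), though without the 2 arrays farthest from the Nfatc1 median r was 0.401 and 0.497. Oscar ran opposite to Ctsk (r = -0.656) and to Acp5 (r = -0.685). Ctsk and Tnfrsf11a did not run together (r = 0.039, rho = 0.0429). The points share arrays, slides and dye normalization, and these values are descriptions without a test.

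The genes with values most like those of Ctsk, among 4501 genes above background on all arrays, were Acp5 (r = 0.937), Vim (0.927), Tmsb4x (0.924), Apoe (0.924) and Grasp (0.922). For Acp5, among 4500 such genes, they were Plin3 (0.928), Igfbp5 (0.907), Apoe (0.907), Gabarap (0.904) and Txndc17 (0.898). Vimentin and thymosin beta 4 are cytoskeletal genes of many cell types. For Mmp9, measured on 1 array, no such ranking is given. Ctsk followed the macrophage markers with r = 0.676 and the osteoblast and osteocyte markers with r = 0.699, and the number of probes above background with r = 0.387. With the adipocyte and muscle markers r was 0.528 and 0.591. Around the group means it was 0.846 and 0.826, against 0.583 for macrophage and 0.708 for osteoblast and osteocyte markers. For Acp5 these were 0.898, 0.843, 0.55 and 0.846 in the same order. The part of these cell types in the shared course of Ctsk and Acp5 was not tested.

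**Figure D4:**
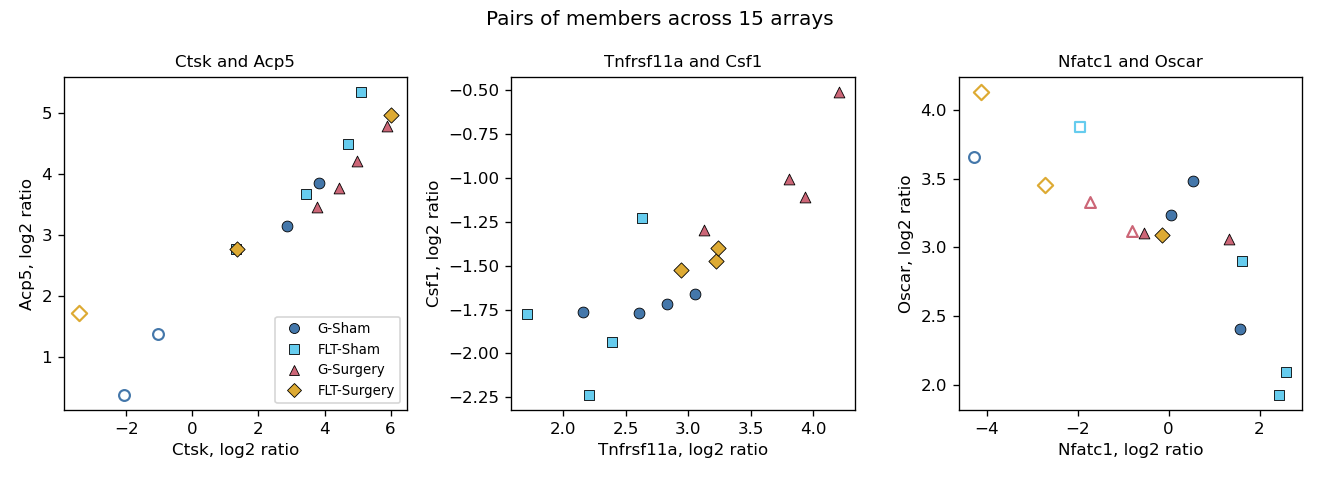
Log2 ratios of 3 pairs of genes on the 15 arrays, by group, with open points where either gene was not well above background. Ctsk and Acp5 lie along a line (r = 0.937), Tnfrsf11a and Csf1 rise together (r = 0.843) and Oscar is low where Nfatc1 is high (r = -0.855).

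Around the members, 5 lists of pathway genes were read, each gene by its brightest probe. The M-CSF and co-stimulation list holds the receptor of M-CSF and the adaptors and kinases that work with Oscar-like receptors. Between G-Surgery and G-Sham all 11 of its 14 genes that were tested were higher, with a median of 0.82 against 0.14 for all probes, of which 59.9% were higher. Of the 11, 4 passed the cut-off, which 2.59% of probes passed, among them Syk with overlapping arrays. After a further loess 2 passed, and with normexp 2 passed with 9 higher and 2 lower. The list of macrophage markers was also higher in G-Surgery, at -0.17 to 0.39 against -1.22 to -0.76 in G-Sham, with 7 of 8 markers detected and Cd163 below background on every array, and its part in these values was not tested.

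Trem2, a receptor that signals through the adaptor Tyrobp in macrophages and osteoclasts, was highest in G-Surgery. Its log2 ratios were -1.75, -1.28, -2.39 and -1.71 in G-Sham and 2.35, 2.39, 1.80 and 0.64 in G-Surgery. In FLT-Sham they were -2.62, -2.39, -1.08 and -1.86, and in FLT-Surgery 1.65, 0.19 and 0.03. All Surgery arrays lay above all Sham arrays, and the differences were 3.58 on the ground (standard error 0.44, adjusted p = 0.0891 in limma) and 2.61 in flight (standard error 0.56, adjusted p = 0.135).

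Others of the lists that rose after surgery on the ground without overlap were Sirpa, a receptor of myeloid cells, by 3.14 (adjusted p = 0.183), Mitf, a transcription factor that works with NFATc1, by 1.56 (adjusted p = 0.239), and the lysosomal protease Ctsb by 1.69 (adjusted p = 0.230). Lilrb4a, an inhibitory receptor, rose by 2.53 (adjusted p = 0.202). In G-Sham, Sirpa was above background on 3 of 4 arrays and Lilrb4a on 2 of 4. Fosl2, a member of AP-1, was at background on every G-Sham array. G-Surgery lay 3.41-fold above those background-level values (adjusted p = 0.230 in limma), and with normexp the log2 difference was 0.33. Trem2, Sirpa and Ctsb passed the cut-off under all 4 scalings, Lilrb4a and Fosl2 not with normexp, and Mitf neither with normexp nor after a further loess. In FLT-Sham, Syk, the kinase below the adaptors, was higher than in G-Sham by 2.09 (adjusted p = 0.387 in limma). G-Sham replicates 1, 4 and 5 were not above background for Syk, so this size rests on background-level values. Fosl2 in FLT-Sham lay 2.09-fold above its background-level G-Sham values (adjusted p = 0.451 in limma). Neither gene passed after a further loess or with normexp, where Fosl2 was at -0.24.

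The RANK signalling list holds the TRAF adaptors, the kinases and NF-kB, AP-1 and calcineurin genes below RANK. Between FLT-Surgery and G-Surgery all 19 of its 30 genes that were tested were lower, with a median of -1.02 against -0.20 for all probes, of which 37.8% were higher. The cut-off was passed by 3, against 3.14% of probes. After a further loess 16 were lower and 3 higher, and with normexp 15 and 4, with a median of -0.16. Without FLT-Surgery replicates 3 and 5, 15 were lower and 4 higher, with a median of -0.42, and 0 passed, against 6.3% of probes. Chuk, the kinase IKK-alpha, fell by 1.77 (adjusted p = 0.248 in limma), and Ppp3r1, a calcineurin subunit, fell by 2.50 (adjusted p = 0.270). Tab2, an adaptor of the TAK1 kinase, was at background on every FLT-Surgery array and at least 6.32-fold lower than in G-Surgery (adjusted p = 0.280). Chuk and Ppp3r1 were above background in FLT-Surgery on replicate 1 alone, so their falls rest on background-level values. With normexp Chuk was at -0.074, Ppp3r1 at -0.33 and Tab2 at -0.16, and none passed. Without FLT-Surgery replicates 3 and 5 they were at -1.07, -0.96 and -1.73, and none passed.

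Against FLT-Sham the same list was lower in FLT-Surgery for 19 of 21 genes tested, with a median of -1.34 against -0.28 for all probes, of which 41.4% were higher, and 5 passed the cut-off, against 6.65% of probes. With normexp 13 of 21 were lower, with a median of -0.16. Without FLT-Surgery replicates 3 and 5 it was also 13 of 21, with a median of -0.59, and 0 passed, against 1.45% of probes. Ppp3cb, a calcineurin subunit, fell by 3.08 (adjusted p = 0.142) and passed under all 4 scalings. Chuk fell by 2.23 (adjusted p = 0.136) and Ppp3r1 by 2.97 (adjusted p = 0.136), and Traf3 was at least 7.37-fold lower (adjusted p = 0.136), none of them past the cut-off with normexp, where they were at -0.17, -0.71 and -0.46. Ppp3cb, Chuk and Ppp3r1 were above background in FLT-Surgery on replicate 1 alone. Pth1r, the parathyroid hormone receptor through which osteoblasts raise RANKL, was at background in FLT-Surgery and at least 7.99-fold lower than in FLT-Sham (adjusted p = 0.136), and it did not pass with normexp (-1.64). None of these 5 passed without FLT-Surgery replicates 3 and 5, where they lay between -2.90 and -1.42, while Trem2 passed there at 3.64. With all arrays Tab2 also passed the cut-off in this comparison, with overlapping arrays. Without FLT-Surgery replicates 3 and 5 its difference was -2.01. Both comparisons of this list share the FLT-Surgery arrays, and the differences of G-Surgery and of FLT-Sham from G-Sham share the G-Sham arrays.

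Of the resorption and fusion list, 12 of 22 genes were tested between the Surgery groups, 11 lower and none past the cut-off, with 37.8% of all probes higher. With normexp 9 were lower, and without FLT-Surgery replicates 3 and 5, 6 of 12. Between FLT-Sham and G-Sham 12 of 16 were higher on the deposited ratios, with 61.1% of all probes, and 7 of 16 with normexp, and Ckb, the brain-type creatine kinase, passed the cut-off with overlapping arrays, FLT-Sham lying at least 3.99-fold above background-level G-Sham (adjusted p = 0.491). It did not pass after a further loess or with normexp. Repressors of osteoclast formation went both ways, with 3 of 5 tested lower in FLT-Surgery than G-Surgery on the deposited ratios and 2 of 5 after a further loess. The list of coupling factors and RANKL regulators was lower in FLT-Surgery than G-Surgery for 7 of 8 genes, 5 of 8 after a further loess, or 2 of 8 without FLT-Surgery replicates 3 and 5, with none past the cut-off.

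**Figure D5:**
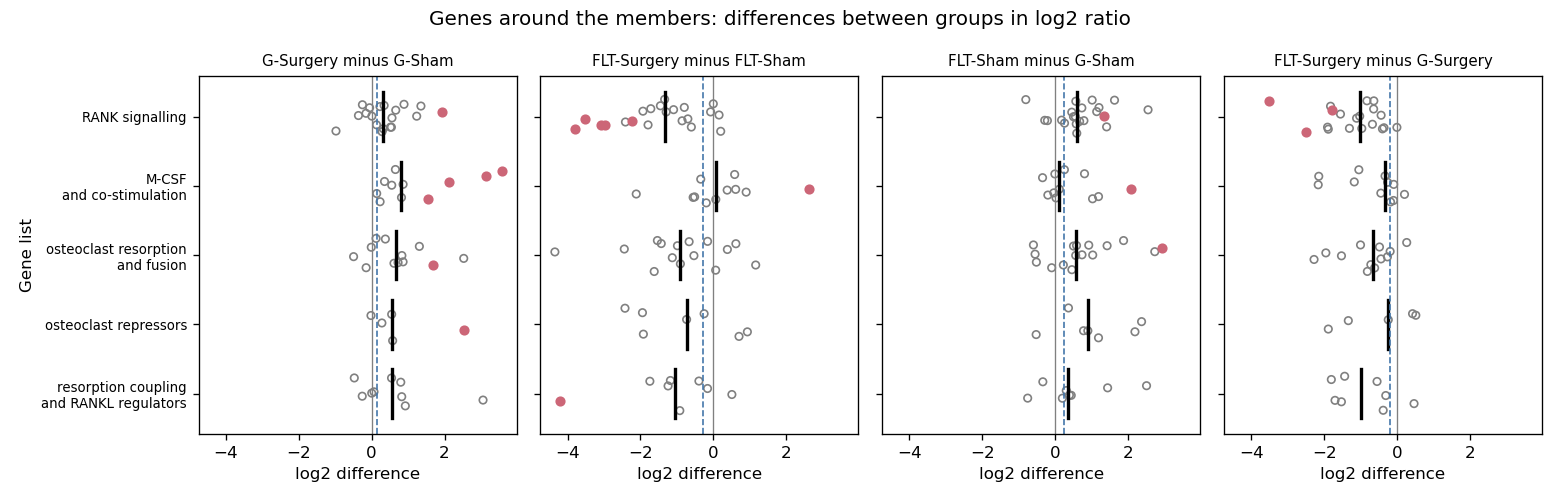
Differences in log2 ratio (horizontal axes) of each tested gene of 5 lists in 4 comparisons, with filled points past the cut-off, black bars at the list's median and a dashed line at the median of all probes. RANK signalling lies to the left in both comparisons with FLT-Surgery first (medians -1.34 and -1.02), and M-CSF and co-stimulation to the right after surgery on the ground (0.82).

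The osteoclast markers as a list had 7 of 10 genes detected on at least 3 arrays, with Calcr below background on every array. Their mean log2 ratio was 0.41 to 1.38 in G-Sham, 1.14 to 2.11 in FLT-Sham, 1.66 to 2.30 in G-Surgery and 0.058 to 2.23 in FLT-Surgery. The list includes Ctsk, Acp5 and Oscar, and its genes did not move alike. Ocstamp, above background on all 15 arrays, was highest in FLT-Surgery replicate 5 (2.85), where Ctsk was lowest. Tcirg1, also above background on all 15, was highest in G-Sham replicate 1 (2.06), where Ctsk was at background. Itgb3, above background on 14 arrays, was lowest in FLT-Surgery replicate 5 (-1.75), as Ctsk was. The neutrophil markers ran from 2.57 to 4.90 in FLT-Surgery and from 5.43 to 6.98 in FLT-Sham, with 4.14 to 5.38 in G-Surgery and 3.78 to 6.28 in G-Sham, and adipocyte markers from -1.24 to 2.21, 3.42 to 5.81, 0.47 to 1.80 and -0.67 to 4.15 in the same order. B cell markers lay between -2.68 and -0.14 over all arrays, with 5 of 6 detected. The part of these cell types in the members' differences was not tested.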

How the data were processed

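RNA of 15 femora was hybridised, 1 array each. Per the labels the sample carried Cy5 and a reference RNA Cy3, with no dye swap. The authors deposited the scanner output of each array (Agilent Feature Extraction, 12.0 in the submitters' processing notes), with spot intensity in Cy5 and Cy3 and the log10 ratio of the dye-normalized signals. The deposited series table repeats that log10 ratio to within 0.005. The study's methods name a within-array lowess, which the deposited ratios already hold in kind. RNA of these bones was of low integrity by the study's own account, in flight and ground mice alike.

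The deposited log10 ratio was turned into log2, outlier spots were left out, and spots were averaged. A probe counted as above background on an array where at least a share of 0.5 of its spots did. Of 55681 probes, 28026 were matched to a symbol through accessions in a RefSeq table. Tests were made in R 4.3.3 by limma 3.58.1, over probes with Cy5 above background on 3 or more arrays of the groups entered, pair by pair, and the interaction on all 15 arrays, with Benjamini-Hochberg adjustment over all probes tested. The number of arrays limits the precision, and p-values measure the spread between these arrays. A gene is given by its brightest probe. Pathway genes named are those past the cut-off whose groups do not overlap. Ckb, and Syk and Tab2 where their groups overlap, fall outside this rule and were named after their values were seen. Bounds come from the Cy5 channel after Aquantile normalization, set against an array's lowest detected signal, so dye bias can enter. A probe below background can lie above that signal, so a bound is not a strict minimum. For Fosl2 this limit changed nothing, and its folds compare plain means. Alternatives were a further loess, normexp (offset 50) with loess, Cy5 alone (75th percentile), other filters, all arrays in the fit, slide or replicate number as a block, the series table, the mean over a gene's probes and leaving out each array, with FLT-Surgery replicates 3 and 5 left out together as an alternative chosen after seeing the data. Files held no mean signal, so normexp used median signals. Fits were tested on simulated data. Figures were drawn with matplotlib 3.10.9 in Python 3.11.15. The members and gene lists were chosen with earlier results of these data known.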

Additional observations from a re-analysis of the deposited data

Results flagged for a closer look

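Over 45 combinations of a probe of the members and a group of 4 arrays, 2 had an array far from the other 3, where chance gives 2.25. Both were G-Sham replicate 5, and in both cases no array of the group was above background. Its log2 ratio was -0.66 at an Atp6v0d2 probe, against -3.43 to -3.08 on the other arrays, and -2.61 at an Nfatc1 probe, against -3.58 to -3.42.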

How the results depend on the processing

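A further loess moved the median of all probes from -0.20 to 0.29 between FLT-Surgery and G-Surgery, from -0.28 to 0.35 between FLT-Surgery and FLT-Sham, from 0.24 to -0.13 between FLT-Sham and G-Sham and from 0.14 to -0.08 between G-Surgery and G-Sham, and the share of called probes that were higher between the Surgery groups from 33.3% of 519 to 94.8% of 1190. Changes of members between groups are therefore relative to these medians. Leaving out 1 array moved the number of called probes from 519 to between 245 and 2052 for the Surgery groups, from 394 to between 94 and 2071 for the Sham groups, from 458 to between 240 and 747 for G-Surgery against G-Sham, from 1272 to between 297 and 4911 for FLT-Surgery against FLT-Sham and from 1160 to between 542 and 3772 for the interaction. Signal over background kept 4 of the 10 genes from being tested. The causes were not tested.

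Between G-Surgery and G-Sham 1 member passed the cut-off, and 0 passed after a further loess or with normexp. With Cy5 alone or slide as a block the 1 member that passed was Ctsk in place of Tnfrsf11a. Between FLT-Surgery and G-Surgery 0 passed, 1 after a further loess (Oscar) and 1 with slide as a block (Nfatc1). Leaving out each array in turn gave 0 to 2 members for G-Surgery against G-Sham, where 2 came without G-Sham replicate 5 (Ctsk and Acp5). It gave 0 to 2 for FLT-Surgery against G-Surgery and for the interaction, where 2 came without FLT-Surgery replicate 1 (Ctsk and Acp5), and 0 to 1 for FLT-Surgery against FLT-Sham, where 1 (Nfatc1) came without FLT-Sham replicate 8.

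With FLT-Surgery replicates 3 and 5 left out together, chosen after seeing the data, 0 members passed, and directions turned between the Surgery groups for Nfatc1 (0.30), Oscar (-0.062), Ctsk (1.26) and Acp5 (0.91) and against FLT-Sham for Ctsk (2.38) and Acp5 (0.90).

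Under the other alternatives directions changed for 14 of 538 values of single genes. Between G-Surgery and G-Sham, Nfatc1 was -0.31 after a further loess, -0.27 with normexp, -0.13 with Cy5 alone and between -1.16 and 0.79 when arrays were left out, with -0.50 without G-Surgery replicate 3, and Oscar between -0.30 and 0.11, with 0.054 without G-Sham replicate 4. Oscar was -0.041 with normexp between the Surgery groups, Ctsk ran from -4.66 to 0.054 between FLT-Surgery and FLT-Sham when arrays were left out, and Csf1 from -0.25 to 0.083 between the Sham groups. In the interaction, Tnfrsf11a was 0.70 after a further loess and 0.31 with Cy5 alone, and Csf1 was 0.20 and, with normexp, 0.42.

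Replicate numbers are shared by G-Surgery with G-Sham and with FLT-Surgery. The deviations of same-numbered arrays correlated at -0.161 to 0.354 and -0.363 to 0.242. The best match carried the same number only for replicate 1 of G-Surgery and G-Sham. Groups this small cannot settle whether the numbers pair the mice, which were taken as unpaired. With the replicate number as a block 1 and 0 members passed, with 389 probes called in place of 458 and 203 in place of 519, and Tnfrsf11a stayed past the cut-off after surgery on the ground (1.11, adjusted p = 0.449).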
